A study of Mus musculus with 6 samples.

Results

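The Hedgehog pathway genes described here are 9 genes of 45703 in the table of counts, chosen by symbol: the ligands Dhh, Shh and Ihh, the receptor Ptch1, the signal transducer Smo, the transcription factors Gli1, Gli2 and Gli3, and the ligand-binding inhibitor Hhip. All 9 had a row. They were measured by RNA sequencing in 6 primary cultures of dorsal root ganglia, where sensory neurons have their cell bodies, wrapped by glia. Adult wild type C57BL/6 animals of 4 to 6 weeks gave the ganglia, and the labels do not tie a replicate to an animal. The dissociated cells were kept for 7 days in 10% serum plus the growth factors EGF and FGF (10 ng/ml each), and RNA from 2 dishes was taken per sample. No Hedgehog ligand, agonist or inhibitor is named in the labels, and all 6 samples form a single group, so the comparisons are between genes within a culture and between replicate cultures.

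Hedgehog proteins are secreted, lipid-modified signals. Without ligand, the receptor Ptch1 holds the membrane protein Smo inactive. When a ligand binds Ptch1, Smo enters the primary cilium and the Gli factors turn into activators of transcription, with Gli1, Ptch1 and Hhip among the best known target genes. In peripheral nerves Dhh is known as the ligand made by Schwann cells, and its absence disturbs the perineurium, the sheath of fibroblast-like cells around nerve fascicles.

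The 3 ligand genes are related, and their sequences are shown to let their reads be told apart. In the GENCODE vM21 transcripts (GRCm38), 68.6% of the aligned coding bases were identical between Dhh and Shh, 64.3% between Dhh and Ihh and 66.8% between Shh and Ihh. The stretch of 60 coding bases most alike in all 3 runs from base 234 to 293 of the coding sequence of Dhh and Shh and from base 246 to 305 of that of Ihh. Capitals mark the 47 bases shared by all 3 genes.
Dhh: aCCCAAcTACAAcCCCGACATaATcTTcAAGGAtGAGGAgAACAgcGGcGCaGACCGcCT
Shh: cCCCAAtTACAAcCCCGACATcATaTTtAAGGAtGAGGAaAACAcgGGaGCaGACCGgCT
Ihh: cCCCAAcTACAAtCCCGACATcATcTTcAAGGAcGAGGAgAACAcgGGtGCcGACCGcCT
The longest run of identical bases was 17 between the Dhh and Shh transcripts, 16 between Dhh and Ihh and 17 between Shh and Ihh. Counts of Shh were whole numbers in all 6 libraries, whereas Dhh and Ihh each had a fractional count in 1 library.

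Dhh was the most abundant of the 9 genes and Shh the only other ligand counted at more than a trace. Dhh (chromosome 15, 98881615 to 98898562, minus strand, GRCm38.p6) was counted at 258, 298, 300 (299.8), 282, 198 and 328 CPM in replicates 1 to 6, where CPM is the count of a gene scaled to the total of its library. Replicate 5 was the lowest and replicate 6 the highest, and the others lay between 258 and 300 (299.8) CPM. Divided by the combined exon length of 5720 bases, the mean level was 48.5 ± 7.88 CPM per kb (SD, n = 6). That level exceeded 91.2% of the 14998 genes kept by the filter on low counts, whose median was 7.20 CPM per kb.

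Shh (chromosome 5, 28456840 to 28467101, minus strand), the ligand best known from limb and spinal cord patterning, was counted at 17.7, 18.3, 18.3, 24.6, 21.4 and 7.03 CPM. Replicate 6 was the low library, with 147 counts against 396 to 493 in the other 5, or 0.350 times their mean CPM. The summed level of 8 neuronal genes was 1493, 962.5, 1908, 1346.5, 940 (939.9) and 1383 CPM in replicates 1 to 6. Whether Shh follows those genes was not tested. An antisense long non-coding gene, 9530036O11Rik, shares 118 bases with Shh and held 1 to 12 counts. Ihh (chromosome 1, 74945315 to 74951672, minus strand), the ligand of growing cartilage, had 5, 5, 3.25, 1, 4 and 6 counts. A count of 3, taken as the floor, equals 0.131 to 0.149 CPM here, so Ihh was at or barely above what this depth can show.

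Per kilobase, Dhh supplied 88.2% ± 4.58 of the summed ligand level and Shh 11.7% ± 4.59 (SD, n = 6), with Ihh at 0.0282% to 0.157%. The share of Dhh was lowest in replicate 5, at 82.1%, and highest in replicate 6, at 95.7%. The Dhh level was 7.32, 8.16, 8.21, 5.75, 4.63 and 23.4 times that of Shh in replicates 1 to 6. On the scale of log2(CPM per kb + 0.1) the difference was 3.01 ± 0.792 and had the same direction in 6 of 6 libraries (two-sided exact sign-flip permutation p = 0.0312, the smallest that 6 libraries allow; adjusted p = 0.0363 over the 36 pairs of genes).

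The receptor and the transducer stood next in level, within a factor of 1.15 of each other in all 6 cultures. Ptch1 (chromosome 13, 63508328 to 63573460, minus strand) was counted at 105, 117, 110 (109.95), 96.6, 127 and 96.5 CPM. Smo (chromosome 6, 29735497 to 29761366, plus strand) was counted at 67.9, 78.3, 67.7, 70.5, 87.5 and 63.4 CPM. Both were highest in replicate 5 and lowest in replicate 6, within a 1.31-fold and a 1.38-fold range. Per kilobase their means were 14.2 ± 1.56 and 13.4 ± 1.63 (SD, n = 6), and their ratio in each library lay between 0.967 and 1.15. The difference of 0.08 ± 0.083 on the log2 scale did not pass the test, with Ptch1 higher in 5 of the 6 (exact sign-flip permutation p = 0.0938, adjusted 0.0964). It took the opposite sign and passed, at -0.44 (exact sign-flip permutation, adjusted p = 0.0363), when each level was divided by the length of the principal GENCODE transcript, which for Smo is 3779 bases against a combined exon length of 5410. Ptch1 was above Shh and all 3 Gli factors in 6 of 6 libraries, and so was Smo.

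The 3 Gli genes differed in how they varied between cultures. Gli3 (chromosome 13, 15463723 to 15730026, plus strand), known mainly for its repressor form, was counted at 28.3, 36.1, 24.3, 27.0, 38.3 and 27.7 CPM, a 1.58-fold range. Gli1 (chromosome 10, 127329882 to 127341579, minus strand), an activator that is itself a Hedgehog target, was counted at 3.13, 6.79, 6.69, 10.1, 26.2 and 4.11 CPM. Gli2 (chromosome 1, 118834061 to 119054405, minus strand), the main early activator, was counted at 0.566, 3.01, 2.45, 7.17, 13.0 and 2.73 CPM.

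Gli1 and Gli2 were both highest in replicate 5, next highest in replicate 4 and lowest in replicate 1. The ratio of replicate 5 to replicate 1 was 8.37 for Gli1 and 23.04 for Gli2, against 1.35 for Gli3. Without replicate 5 the highest library was still 3.21 times the lowest for Gli1 and 12.7 times for Gli2. These ratios rest on 72 and 13 counts in replicate 1. The antisense neighbour Arhgap9 overlaps Gli1 by 66 bases and held 3 to 35 counts.

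The makeup of the Gli transcripts shifted between libraries. Gli3 made up 78.2%, 65.5%, 57.2%, 46.5%, 33.8% and 69.0% of the summed Gli level per kilobase in replicates 1 to 6. Gli1 made up 20.1% in replicate 1 and 53.9% in replicate 5, the single library in which it exceeded Gli3. Over the 6 libraries, the excess of Gli3 over Gli1, 0.77 ± 0.912 on the log2 scale, did not pass the test, with Gli3 higher in 5 of the 6 (exact sign-flip permutation p = 0.125, adjusted 0.125). Gli1 exceeded Gli2 in 6 of 6 libraries, by 1.97 ± 0.403 (exact sign-flip permutation p = 0.0312, adjusted 0.0363).

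**Figure D1:**
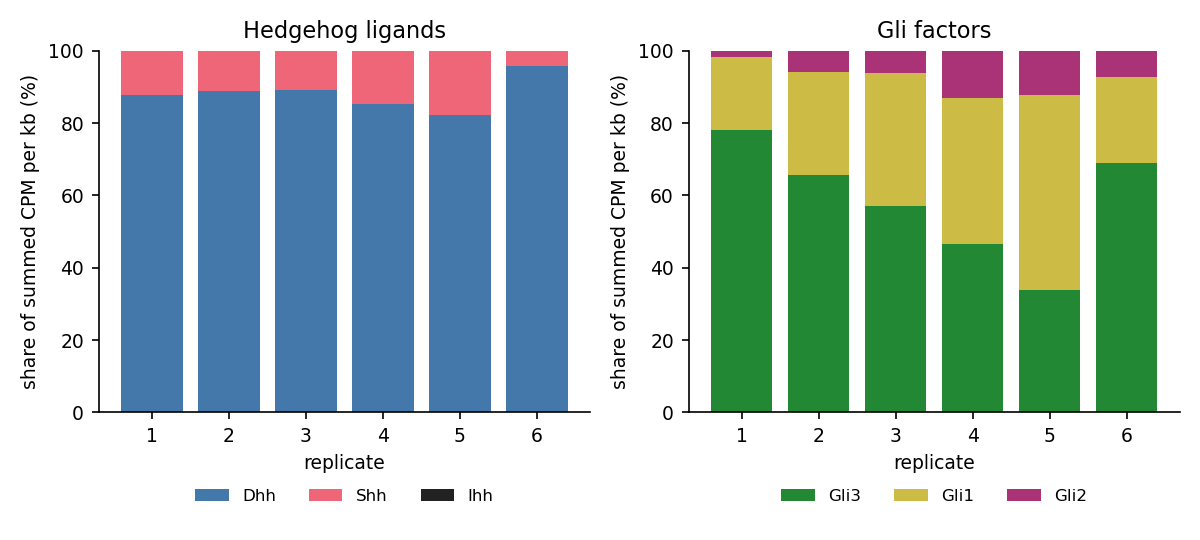
Stacked bars give the share of each gene in the summed CPM per kb of the 3 ligands (left) and of the 3 Gli factors (right), in percent, for each of the 6 replicate cultures. Dhh lies between 82.1% and 95.7% in every library, Ihh is too small to see, and Gli3 ranges from 33.8% in replicate 5 to 78.2% in replicate 1.

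Hhip (chromosome 8, 79965850 to 80058060, minus strand), a membrane protein that binds the ligands and limits the signal, was counted at 0.958, 0.820, 1.89, 1.94, 6.45 and 0.861 CPM. Replicate 5 held 135 counts and the other libraries 18 to 41. Its level in replicate 5 was 4.98 times the mean of the other 5 libraries, near the 4.26 times of Gli1 and the 4.10 times of Gli2. Ptch1, a known target like Gli1 and Hhip, was in replicate 5 at 1.21 times the mean of the other libraries.

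Ordered by mean CPM per kb, the genes ran Dhh, Ptch1, Smo, Shh, Gli3, Gli1, Gli2, Hhip and Ihh. Of the 36 pairs, 31 differed at an adjusted p under 0.05 in the exact sign-flip permutation test. Among neighbours in the order, Dhh with Ptch1 (1.76 ± 0.378 on the log2 scale), Smo with Shh (1.17 ± 0.545), Gli1 with Gli2 and Hhip with Ihh (0.86 ± 0.906) passed. The ranges over the libraries overlapped for Gli1 with Gli2 and for Hhip with Ihh. Hhip with Ihh did not pass with principal transcript lengths, at 0.75 (exact sign-flip permutation, adjusted p = 0.188). The pairs Ptch1 with Smo, Shh with Gli3 (0.72 ± 0.621), Gli3 with Gli1 and Gli2 with Hhip (0.91 ± 0.707) did not pass the test, nor did Gli2 with Ihh, which are not neighbours. In each of these pairs the direction held in 5 of the 6 libraries. Shh with Gli3, Gli2 with Hhip and Gli2 with Ihh each had an adjusted p of 0.0662 in the exact sign-flip permutation test. Levels of at least 1 CPM in all 6 libraries were reached by 6 of the 9 genes, against 30.4% of all 45703 genes.

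**Figure D2:**
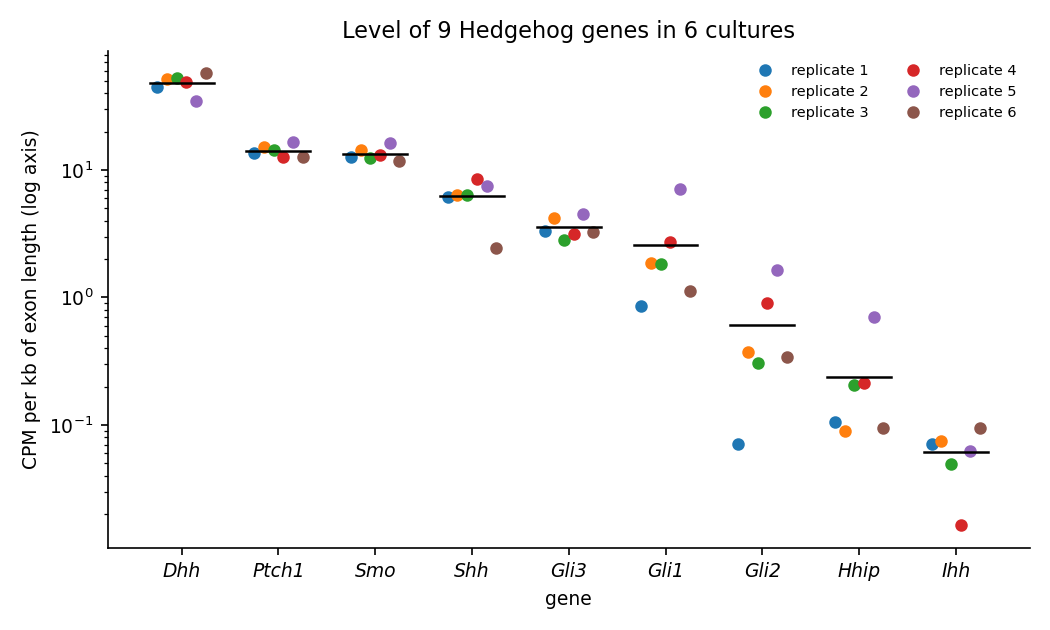
Each point is the CPM per kb of exon length of a gene in 1 culture, on a log axis, coloured by replicate, and the black bar is the mean over 6 cultures. Dhh, Ptch1, Smo and Gli3 form tight groups, while Gli1, Gli2 and Hhip spread out with replicate 5 on top, and Shh has its low point in replicate 6.

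The spread between cultures exceeded counting noise for all 8 genes that passed the filter. Ihh did not pass it. A chi-square test of the 6 counts, Benjamini-Hochberg adjusted over 14998 genes, called 8 of these 8, where 76.3% of all genes tested were called, so the call by itself sets these genes apart from few others. Adjusted p-values in the chi-square test ran from 2.86e-173 for Dhh, whose large counts make small differences visible, to 8.57e-23 for Smo.

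The size of the spread separated the genes more clearly. The coefficient of variation of CPM was 101% (100.5) for Hhip, 94.7% for Gli2 and 89.9% for Gli1, then 33.1% for Shh, 18.4% for Gli3, 16.3% for Dhh, 12.2% for Smo and 11.0% for Ptch1. The median over all genes tested was 12.1%. Without replicate 5 the values were 44.1% for Hhip, 76.2% for Gli2 and 43.9% for Gli1, and those of Dhh and Smo were 8.74% and 7.93%. edgeR's biological coefficient of variation, which removes counting noise, was 0.775 for Gli2, 0.675 for Hhip and 0.631 for Gli1, against trend values of 0.286, 0.288 and 0.257 for genes of their abundance. For Ptch1 it was 0.124 against a trend of 0.151, and for Smo 0.130 against 0.152.

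Replicate 5 was the highest library for 6 of the 8 genes tested, namely Ptch1, Smo, Gli1, Gli2, Gli3 and Hhip, where 29.2% of all genes tested were highest there. Dhh was lowest there, as were 26.2% of all genes tested. Of the 8, 2 were lowest in replicate 1 (Gli1 and Gli2) and 3 in replicate 6 (Shh, Ptch1 and Smo), against 23.8% and 15.9% of all genes tested. A level in replicate 5 of at least 4 times that in replicate 1 was found for 3 of the 8, Gli1, Gli2 and Hhip, and for 3.51% of all genes tested. Library totals ranged from 20070639 to 22968642 counts. These shares describe the libraries, and no list of genes was tested against another.

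Boc, Cdon and Gas1, cell surface proteins that help Ptch1 bind its ligands, were each highest in replicate 5. Boc was counted at 2.87, 6.10, 9.37, 10.4, 23.6 and 8.46 CPM. Cdon was counted at 7.88, 17.1, 15.4, 20.7, 58.2 and 15.1 CPM. Gas1 was counted at 5.36, 9.52, 7.25, 8.52, 16.7 and 5.50 CPM. All 3 were lowest in replicate 1 and highest in replicate 5, and Boc and Cdon were next highest in replicate 4. Lrp2, a large endocytic receptor that binds Shh, was at 1.15 to 3.31 CPM and was highest in replicate 1. Boc, Cdon, Gas1 and Lrp2 were all called in the chi-square test, which called 76.3% of all genes tested.

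Genes for making and releasing the ligands were present at low to moderate levels. Disp1, the transporter that releases Hedgehog from the cell, was at 24.3 ± 3.36 CPM (SD, n = 6). Scube3 and Scube1, secreted carriers of the released ligand, were at 22.8 ± 4.72 and 8.62 ± 3.16 CPM, and Scube2 at 0.110 ± 0.0669 CPM, with 1 to 4 counts. Hhat, the enzyme that attaches palmitate to the ligand, was highest in replicate 5, at 8.69 CPM, and ranged from 2.31 to 6.03 CPM elsewhere. Gpc3, a proteoglycan that binds ligand in competition with Ptch1, was at 7.56 ± 2.05 CPM. The chi-square test called 5 of the 5 of these 6 genes that passed the filter, against 76.3% of all genes tested.

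The relay from Smo to the Gli factors and the primary cilium in which it works were represented by every gene of their lists. All 14 relay genes and all 10 cilium genes reached 1 CPM in all 6 libraries, against 30.4% of all 45703 genes. In the chi-square test 13 of 14 and 9 of 10 were called, not far from the 76.3% of all genes tested. Their median coefficients of variation were 8.86% and 9.28%, against 12.1% for all genes tested. The relay genes highest per kilobase were Spop, an adaptor for Gli breakdown, at 67.2 CPM per kb, the protein kinase A subunit Prkaca at 43.0 and casein kinase Csnk1a1 at 42.4. Sufu, the cytoplasmic inhibitor of the Gli factors, falls outside the rule for named genes and was singled out for that role after its values were seen. It was counted at 38.6 ± 5.66 CPM (SD, n = 6), lowest in replicate 1 at 31.3 and highest in replicate 5 at 47.7. The highest cilium genes were Tulp3, Kif3a and Ift122, adaptor, motor and transport proteins of the cilium, at 15.3, 12.5 and 11.9 CPM per kb.

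A list of 14 genes known as Hedgehog targets in other tissues gave a mixed picture. Ccnd1, a cyclin of the G1 phase, was at 761 ± 95.9 CPM, the Wnt inhibitor Sfrp1 at 273 ± 119.9 CPM and the cyclin Ccnd2 at 146 ± 79.2 CPM (SD, n = 6). Of these, Ccnd2 was highest in replicate 5, at 288 CPM, 4.51 times its level in replicate 1, whereas Ccnd1 and Sfrp1 were highest in replicate 6. Nkx2-2 and Foxa2, targets in the ventral neural tube, had at most 3 counts in every library. Of the 12 genes with more than 3 counts in some library, 7 were highest in replicate 5, where 29.3% of all such genes were highest. Of the 7 genes that passed the filter on low counts, 3 were highest there, against 29.2% of all genes tested. The chi-square test called 7 of the 7 that passed the filter, against 76.3% of all genes tested.

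**Figure D3:**
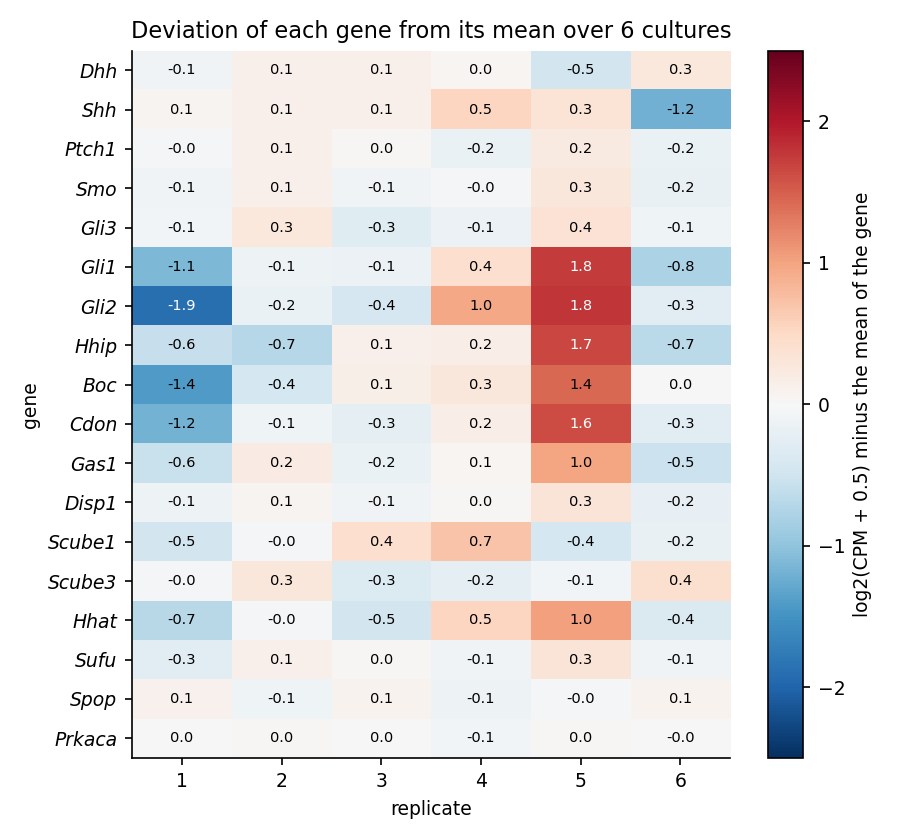
Each cell gives log2(CPM + 0.5) of a gene in 1 of the 6 replicate cultures minus the mean of that gene, with red above and blue below the mean. Gli1, Gli2, Hhip, Boc, Cdon and Gas1 are above their mean in replicate 5 and below it in replicate 1, Ptch1, Smo and Spop stay near 0, and Shh is below its mean in replicate 6.

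Some lists of cell type markers varied along with the variable genes, and others did not. For comparison, 29.3% of all genes with more than 3 counts in some library were highest in replicate 5. Of all genes tested, 26.2% were lowest there. A list of 8 fibroblast genes, led by Col1a2 and Col3a1, summed to 3339, 6064, 4432, 7453, 13980 (13980.1) and 4801 CPM in replicates 1 to 6. Of the 8, 7 were highest in replicate 5, and so were 6 of the 7 that passed the filter on low counts. A list of 9 glial lineage genes, among them the myelin gene Mbp, summed to 6265 CPM in replicate 5 and 8044 to 10127 CPM elsewhere, and 7 of its 9 genes were lowest there. The endothelial list summed to 8.14 CPM in replicate 1 and 116 CPM in replicate 5, and 6 of its 6 genes were highest in replicate 5. Of these, Tek and Cldn5, which was at 0 in replicates 2, 3 and 6, did not pass the filter on low counts. Cldn5 was counted above 3 in replicate 5 only. The 4 genes that passed were all highest in replicate 5, against 29.2% of all genes tested. The mural cell list ranged from 271 to 1512 CPM and the macrophage list from 13.5 to 118 CPM, each lowest in replicate 1 and highest in replicate 5, where 3 of the 6 genes of each list were highest. Acta2 alone gave 836 CPM of the mural sum in replicate 5. Of 7 perineurial genes, Lypd2 was at 0 in every library, and the genes did not move one way. Their sum of 415 to 649 CPM was lowest in replicate 5 through Itgb4, with a mean of 452 CPM and 299 CPM there, while 3 of the 6 counted genes, Slc2a1 among them at 69.6 CPM, were highest in replicate 5. The neuronal list was highest in replicate 3, at 1908 CPM, and lowest in replicate 5, at 940 (939.9) CPM. A list of 6 cell cycle genes was highest in replicate 6, at 472 CPM. The glial and neuronal lists were counted at 1 CPM or more in all 6 libraries for 9 of 9 and 8 of 8 genes, against 30.4% of all 45703 genes. In bulk RNA, fewer cells of a type and less RNA per cell cannot be told apart, and the part of these cell types in the Gli1, Gli2 and Hhip values was not tested.

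Across the 6 libraries, 21 relations were computed between log2 levels: 8 genes with each of the fibroblast and glial lists, and 5 between Hedgehog genes. The summed fibroblast level, with a mean of 6678 CPM, came mostly from 3 collagen genes. Their means were 2694.5 CPM for Col1a2, 1954 CPM for Col3a1 and 1781 CPM for Col1a1, so the other genes of the list weigh little in it. Gli2 followed the summed fibroblast level with Pearson's r = 0.96 (exact permutation p = 0.00139, the smallest that 720 pairings allow, adjusted 0.0292). Spearman's rho for Gli2 was 1.00, with an adjusted p of 0.0583 in the exact permutation test. Gli1 followed it with r = 0.97 (exact permutation p = 0.00417, adjusted 0.0437) and rho = 0.94 (exact permutation p = 0.0167, adjusted 0.175). Replicates 1 and 5 lie farthest from the median fibroblast level, and when both were dropped r was 0.90 for Gli2 and 0.75 for Gli1. Both lost the call when the fibroblast level was taken as the mean of log2 CPM over the list, which was tried only once the data were known (exact permutation, adjusted p = 0.0583 for each). No relation was computed with the other marker lists. The endothelial list summed to 8.14, 19.3, 22.7, 38.7, 116 and 25.1 CPM in replicates 1 to 6. It too was lowest in replicate 1, highest in replicate 5 and next highest in replicate 4. The relations are therefore not shown to be particular to fibroblast genes.

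The other 19 relations did not pass after adjustment. Hhip had r = -0.95 with the glial level (exact permutation p = 0.00833, adjusted 0.0583) and rho = -0.83 (exact permutation p = 0.0583, adjusted 0.306). With TMM-scaled library sizes its adjusted p was 0.0486 in the exact permutation test, and without replicates 1 and 5 r was -0.80. Ptch1 had r = 0.55 and rho = 0.37 with the fibroblast level (exact permutation p = 0.263 and 0.497, adjusted 0.324 and 0.614), and r was -0.19 without replicates 1 and 5. Smo had r = 0.83 and rho = 0.71 (exact permutation p = 0.0444 and 0.136, adjusted 0.124 and 0.408), and r was 0.54 without those libraries.

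Among the Hedgehog genes, Gli1 with Hhip had r = 0.92 and rho = 0.60 (exact permutation p = 0.0306 and 0.242, adjusted 0.107 and 0.564), and Gli1 with Ptch1 had r = 0.63 and rho = 0.54 (exact permutation p = 0.169 and 0.297, adjusted 0.254 and 0.567). Without replicates 1 and 5, r was 0.69 and 0.07. The ligand Dhh had r = -0.73 and rho = -0.43 with Gli1 (exact permutation p = 0.117 and 0.419, adjusted 0.229 and 0.614), a sign that turned to 0.68 without replicates 5 and 6. The relation of Dhh to Gli1 therefore rests on those libraries. Since the labels name no batch, within-batch values could not be given.

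**Figure D4:**
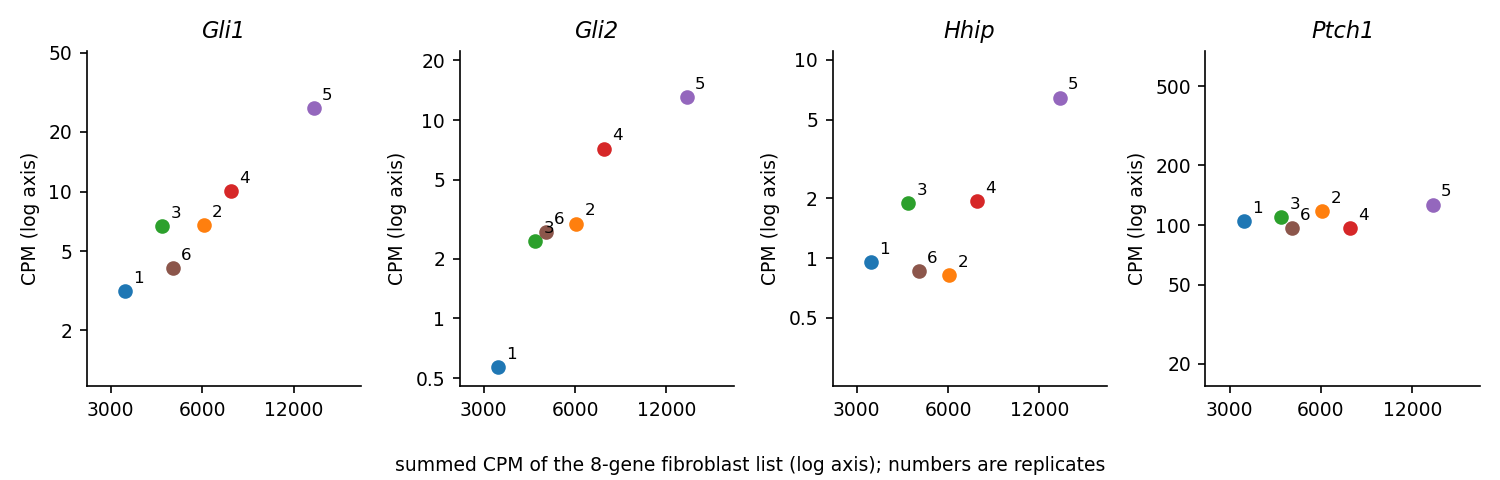
Each panel plots the CPM of 1 gene against the summed CPM of 8 fibroblast genes in the 6 replicate cultures, both on log axes that span the same fold range in every panel. Gli1 and Gli2 climb from replicate 1 to replicates 4 and 5 at the highest fibroblast levels, Hhip is high in replicate 5, and Ptch1 lies between 96.5 and 127 CPM throughout.

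The genes with the most similar profiles were found among 11938 genes with a mean of at least 5 CPM, by the root mean square difference of centred log2(CPM + 0.5) over the 6 libraries. For Gli1 the nearest were Emilin1, an elastic fibre glycoprotein, at a distance of 0.115, Adamts15, a secreted protease, at 0.166 and Nrep at 0.203, against a median of 0.932 over all candidates. For Gli2 they were Rab3il1 at 0.0967, Calcrl, the receptor subunit for CGRP and adrenomedullin, at 0.119 and Plekhh2 at 0.145, against a median of 1.16. For Hhip they were Arap3 at 0.205, Arl4c at 0.243 and the inhibin subunit Inhbb at 0.245, against a median of 0.835. For Shh the nearest were Dok4, Tgfbi and Eif2s3y, at 0.294, 0.298 and 0.317 against a median of 0.574, so no candidate was close to its profile.

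Genes with flatter profiles had smaller distances, both to their nearest genes and to the candidates in general. The medians over all candidates were 0.269 for Dhh, 0.196 for Ptch1, 0.206 for Smo and 0.277 for Gli3. The distance is not scaled by the spread of a profile, so it cannot rank flat against variable genes. For Dhh the nearest genes included Ccdc157 at 0.0299 and Serhl at 0.0360. For Ptch1 they were Creb3l2, Xpc and Sin3a, at 0.0363 to 0.0415. For Smo they were Agpat2, the ligand transporter Disp1 and Nup188, at 0.0389 to 0.0463. For Gli3 they were Gdpgp1, Tbc1d2b and the collagen chaperone Serpinh1, at 0.0624 to 0.0737.

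Because Gli1, Gli2 and Hhip were all at least 4 times as high in replicate 5 as in replicate 1, windows at annotated starts were searched for the GLI binding consensus GACCACCCA on either strand. RefSeq windows (GRCm38.p6) from 250 bases before to 50 after an annotated start were given for 7 of the 9 genes, Shh and Gli1 not being among them. That start need not be the gene end given above. The windows of Ptch1 (63565686 to 63565985) and Gli2 (119053570 to 119053869) lay wholly inside the gene. For these genes the bases before the gene end given above were not searched. None of the 7 windows held the consensus, which 0.253% of 32851 windows held. Its core CCACCC was found in 6 of the 7, Ptch1 being the exception, and in 31.5% of all windows. The 6 windows had a GC content of 61.7% to 73.7%, against a median of 52.7% for all windows. The core is shown in capitals, with 20 bases on either side, for Hhip, which was high in replicate 5, and for Dhh, which was low there. On the strand of the gene the core reads CCACCC in Hhip, from 158 bases before the start its window was built on (chr8:80058141-80058186, minus strand). In Dhh it reads GGGTGG, from 88 bases before the start its window was built on (chr15:98898603-98898648, minus strand). Both of these starts lie inside the gene ends given above, so the distances to those ends are shorter.
Hhip: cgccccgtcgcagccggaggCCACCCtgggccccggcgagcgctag
Dhh: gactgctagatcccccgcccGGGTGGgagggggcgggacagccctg
A match of letters shows no binding.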

How the data were processed

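RNA was sequenced from 6 replicate cultures. The deposited table gives estimated counts per gene, unscaled by the authors and fractional for 13.4% to 14.7% of genes per library. The submitters' processing notes name cutadapt 2.5, STAR 2.7.2b and featureCounts 1.6.4 with GRCm38.p6; strand setting and treatment of multi-matching reads are not given in the sources used here. The labels give an RNA integrity number of 8.7 or more.

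CPM used library totals, and CPM per kb the deposited combined exon length, which merges isoforms. For the chi-square test counts were rounded, filtered with filterByExpr (14998 genes) and scaled by TMM (edgeR 4.0.16, R 4.3.3); DESeq2 1.42.0 size factors were an alternative. The script was tested on simulated data. All tests were two-sided, apart from the chi-square test. The chi-square p-values measure departure from counting noise, which large counts make easier to see. Those of the sign-flip test measure how rarely flipping the signs of the differences in the libraries gave a mean difference as large. They depend on the sizes of the differences as well as on their direction. Those of the relations measure how rarely a re-pairing of libraries gave as strong a relation. All of them concern these samples. Pseudocounts were 0.1 (CPM per kb) and 0.5 (CPM). The table held 0 further columns of per-sample values.

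The genes, lists and tests were chosen with earlier results of these data known. Named genes were the 9 members, the co-receptor and ligand processing genes, the 3 highest genes per kilobase of the other pathway lists, the 2 highest genes of marker lists, genes with at most 3 counts everywhere, and the 3 genes nearest in profile to each member. Counting intervals and floors cover counting error only. Some genes that this rule names are not reported here.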

Additional observations from a re-analysis of the deposited data

Results flagged for a closer look

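Across 41 measures (CPM of members and of named pathway genes, shares, and summed marker lists), the distance of the highest or lowest library from the next one, as a share of the whole range, was set against Dixon's published critical value for 6 samples. Chance flags about 1 in 20 groups, or 2.05 of 41, and 7 measures exceeded the value. In 6 of them replicate 5 was the high library, so they are not separate events.

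Among the 9 Hedgehog genes, Hhip had a ratio of 0.800, with 6.45 CPM in replicate 5 and 1.94 in the next library, and Gli1 a ratio of 0.70 (0.6999), with 26.2 against 10.1 CPM. All 3 co-receptors that assist Ptch1 were also high there. Cdon had a ratio of 0.746 (58.2 against 20.7 CPM), Boc 0.639 (23.6 against 10.4 CPM) and Gas1 0.632 (16.7 against 9.52 CPM). The summed endothelial list had a ratio of 0.717, with 116 against 38.7 CPM. The Hedgehog target Sfrp1 was high in replicate 6 instead, with a ratio of 0.636 and 497 against 276 CPM.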

How the results depend on the processing

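No paired comparison of sample groups was possible because all samples belong to 1 group. The sign-flip test compared genes within each library. Dividing by length mattered most for the order of levels. With CPM not divided by length, Shh minus Gli3 turned from 0.72 to -0.83 and passed, Ptch1 minus Smo (0.58), Gli3 minus Gli1 (2.01) and Gli2 minus Ihh (3.605) came to pass, and Shh minus Gli1 (1.18) no longer passed (exact sign-flip permutation, adjusted p = 0.0643), so that 34 of 36 pairs passed against 31. With principal transcript lengths, added after the data were seen, Ptch1 minus Smo turned to -0.44 and Hhip minus Ihh (0.75) no longer passed. With the fibroblast and glial levels as list means of log2 CPM, also added, 0 of 21 relations passed against 2, although 7 had an unadjusted exact permutation p under 0.05. Of the 14 target genes 8 were detected at 1 CPM in 3 libraries, against 5 in all 6. Of all 45703 genes, 30.4% were detected in all 6. Leaving out replicate 5 turned the sign of 8 relations that had not passed, with r then 0.30 for the fibroblast level with Dhh, -0.12 for it with Ptch1 and 0.14 for Dhh with Gli1. The cause was not tested. With no filter on low counts, 13488 of 26854 genes (50.2%) passed the chi-square test, against 11450 with it and 10097 to 11260 when 1 replicate was left out.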
